A study of Mus musculus with 22 samples.

Results

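Precursors of secreted neuropeptides and granins, encoded by 10 genes, were followed in the dentate gyrus of mice with and without serum response factor (SRF). They were Npy, Gal, Adcyap1, Vgf, Scg2, Penk, Pdyn, Tac1, Cck and Sst, taken by gene symbol from the annotation of an Illumina MouseWG-6 v2.0 array. These 10 genes were among 21946 genes with a named probe, and 14 of the 46237 probes on the array belonged to them. Of the 10 genes, 6 had 1 probe and 4 had several, and the value of a gene was taken from its probe with the highest mean signal. All 10 of these probes had a mean log2 signal (9.56 to 14.59) above the median over genes, 8.24.

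Total RNA from 22 male mice was hybridized, with 1 array for each animal. KO mice (Srf f/f;CaMKCreERT2) carried loxP-flanked Srf and a tamoxifen-inducible Cre recombinase, and CTR mice were Srf f/f littermates without Cre. There were 5 KO mice given kainic acid (KA), 6 KO mice given saline, 5 CTR mice given KA and 6 CTR mice given saline, and the dentate gyrus was collected 6 h after seizures, or 6 h after saline. KA activates kainate receptors, a class of glutamate receptors, and thereby brings on seizures; it was injected intraperitoneally at 35 to 50 mg/kg. Both genotypes had received tamoxifen (1 mg, 2 injections a day for 5 to 10 days) at an age of 2 to 6 months, at least 4 weeks before the experiment, and saline for 3 days to accustom them to injection. The Cre was driven in excitatory forebrain neurons, so interneurons and glia of the KO mice were not targeted, and whole dentate gyrus was measured.

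The 2 deposited tables of signals did not name the arrays alike, since 16 of 22 columns of the second table matched another sample of the first (r of at least 0.9997), and 14 of them a sample of another group. In the first table, on which all values rest, Srf lay between 10.95 and 11.58 in the 11 KO arrays and between 11.73 and 12.62 in the 11 CTR arrays, with no overlap, on the brighter of its 2 probes (ILMN_2988299). On the dim Srf probe (ILMN_1242533) KO arrays lay between 7.32 and 7.67 and CTR arrays between 7.46 and 8.87, which overlap. Whether either Srf probe lies in the deleted part is not given in the sources used here. Under the names of the second table, Srf lay between 10.92 and 12.49 in KO arrays and between 11.11 and 12.61 in CTR arrays, which overlap, and none of the 10 genes was called in any comparison. The log2 signals of the first table ran from 6.69 to 16.12 with a median of 7.88, so the fold changes of dim probes are understated and the brightest probes lie near the top of the range. The granule cell markers Prox1, C1ql2 and Sema5a averaged 11.98, 15.33 and 14.26 in KO mice and 12.19, 15.45 and 14.35 in CTR mice after saline. Calb1 and Glis3 lay near the low end on their probes, at 7.30 and 7.50 in KO mice and 7.36 and 7.66 in CTR mice.

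Neuropeptides are made as long precursors, cut by convertases and stored with granins in dense-core vesicles, which neurons release mainly during strong or repeated firing. In the rodent dentate gyrus, granule cells store opioid peptides from Pdyn and Penk in their mossy fibers, whereas somatostatin, neuropeptide Y and cholecystokinin are known for the interneurons in which they are made. Seizures are known to induce the transcripts of several of these precursors, in part through cAMP response elements (CREs), the sites of CREB-family factors. SRF itself binds the CArG box of activity-regulated promoters.

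Promoter windows from RefSeq (GRCm38.p6; 250 bases before to 50 bases from the start on) were found for 8 of the 10 genes, not for Penk and Vgf, with 2 windows each for Adcyap1 and Pdyn. The letters TGACGTCA of a full CRE, sought on both strands, stood in the windows of 2 of the 8 genes, Scg2 and Sst, beginning 68 and 48 bases before the start, against 1.8% of 32534 promoters of the same length. The half-site TGACG, sought on both strands and contained in every full CRE, stood in 6 of the 8 genes (Gal, Adcyap1, Scg2, Tac1, Cck and Sst), against 20.9% of promoters. The AP-1 letters TGANTCA and the CArG box were in none of the 8, against 7.79% and 1.64% of promoters. A match of letters is a description and not a measured site. The 120 bases before the start are shown for the 5 genes that carried a CRE or half-site there, so that its place can be set beside their responses, and for Npy, which carried neither. The window shown for Adcyap1 is the one farther upstream. Capitals mark TGACGTCA or TGACG, the second on either strand.
Scg2, chr1:79440027-79440146, - strand: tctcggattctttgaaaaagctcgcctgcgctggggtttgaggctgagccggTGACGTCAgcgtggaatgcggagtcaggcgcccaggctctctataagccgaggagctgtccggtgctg
Sst, chr16:23890845-23890964, - strand: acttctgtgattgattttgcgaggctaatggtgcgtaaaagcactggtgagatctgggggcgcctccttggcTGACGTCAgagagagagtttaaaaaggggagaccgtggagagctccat
Adcyap1, chr17:93198897-93199016, + strand: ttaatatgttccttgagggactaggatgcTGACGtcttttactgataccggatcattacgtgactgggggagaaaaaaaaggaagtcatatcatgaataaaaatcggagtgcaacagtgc
Cck, chr9:121495695-121495814, - strand: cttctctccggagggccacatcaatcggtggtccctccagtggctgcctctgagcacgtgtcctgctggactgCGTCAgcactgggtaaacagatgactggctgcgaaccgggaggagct
Tac1, chr6:7554941-7555060, + strand: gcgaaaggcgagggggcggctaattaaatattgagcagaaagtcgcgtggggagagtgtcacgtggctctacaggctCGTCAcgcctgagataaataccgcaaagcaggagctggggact
Npy, chr6:49822590-49822709, + strand: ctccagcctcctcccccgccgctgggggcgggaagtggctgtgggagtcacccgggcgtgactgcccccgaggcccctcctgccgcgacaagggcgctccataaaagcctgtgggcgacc

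At 6 h after KA, 5 of the 10 precursors were higher in KO mice (4.2% of all genes were called in that direction), 1 was lower (4.24% of genes) and 4 did not pass the test, whereas all 10 were higher in CTR mice (8.88% of genes). After KA, 7 of the 10 were lower (3.74% of genes) and 2, Npy and Gal, were higher (2.62%) in KO than in CTR mice. After saline no precursor was called between the genotypes by limma, as against 1 gene (0.00456%), Srf, of all genes, and 2 precursors, Adcyap1 and Pdyn, had an unadjusted p under 0.05, as did 2.17% of all genes. Adcyap1 stood apart, because it was lower after KA in KO mice and higher after KA in CTR mice. A gene was called at a Benjamini-Hochberg adjusted p under 0.05 over all probes with a change of more than 1.5-fold in limma, and a difference between the responses (interaction) at an adjusted p under 0.01. All differences are KO minus CTR or KA minus saline. Since RNA came from whole tissue, fewer cells of a type and less RNA per cell cannot be told apart. The 10 genes were chosen with earlier results of these data known, so their counts beside shares of genes are a description and not a test.

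**Figure D1:**
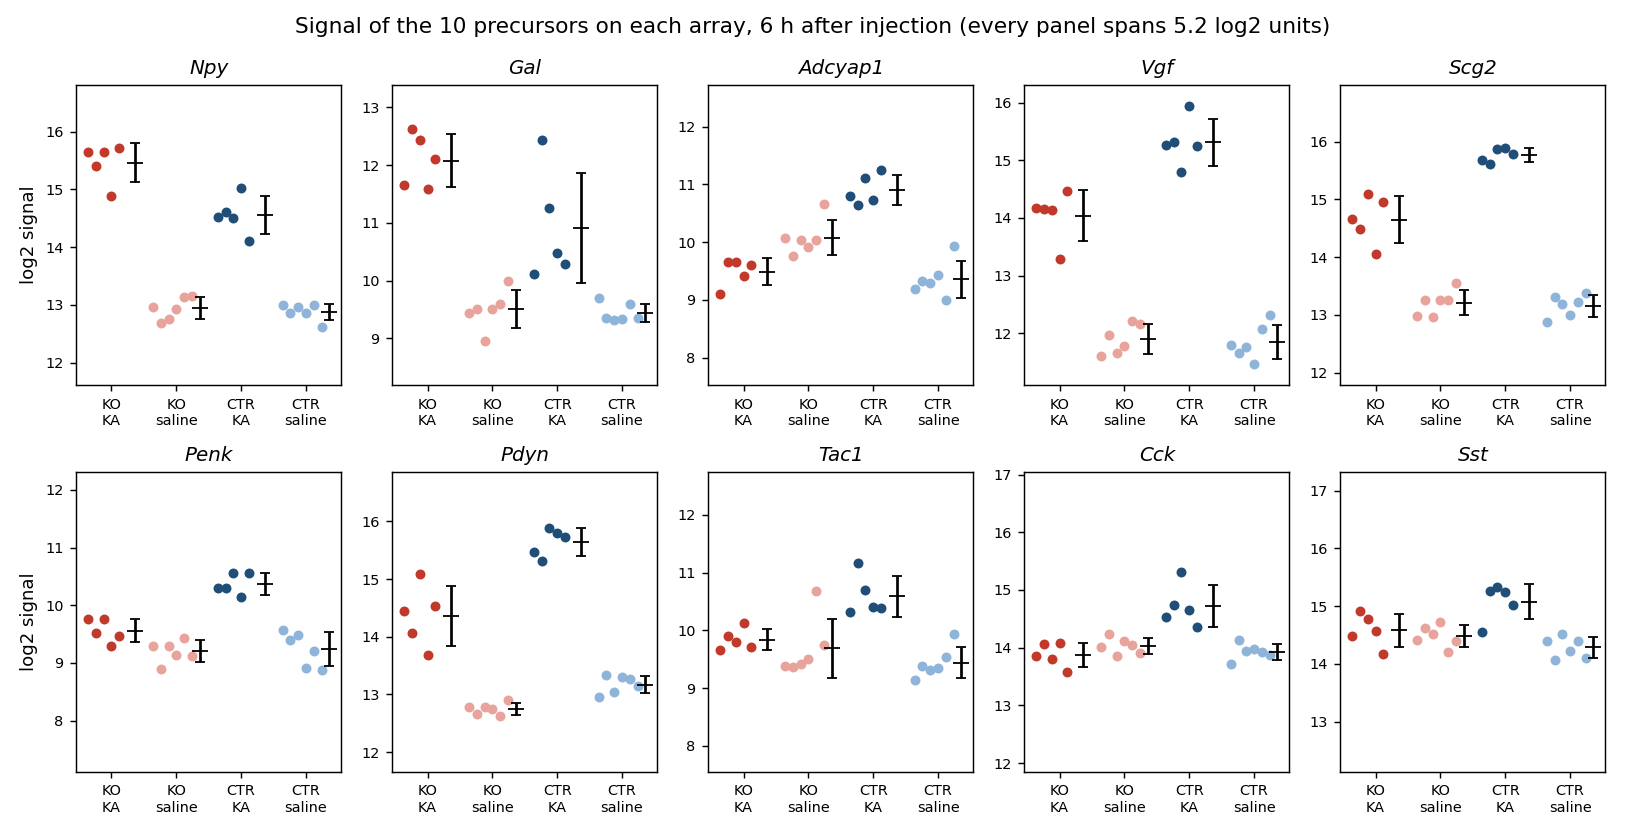
Log2 signal of each precursor on its main probe, 1 panel for each gene, with 1 point for each mouse and the group mean with its SD beside the points. The KA arrays of KO mice lie above their saline arrays in 5 panels, and those of CTR mice in all 10.

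The opioid precursors were lower in KO than in CTR mice after KA, and their responses to KA were smaller in KO mice by value. Pdyn, the prodynorphin gene (ILMN_2783873), had log2 signals of 13.69, 14.07, 14.44, 14.53 and 15.08 in KO mice and 15.31, 15.47, 15.73, 15.79 and 15.89 in CTR mice after KA. After saline it lay between 12.63 and 12.90 (median 12.77) in KO mice and between 12.96 and 13.33 (median 13.20) in CTR mice. Every KO array therefore lay below every CTR array under both treatments. The response to KA was 1.61 on the log2 scale (standard error 0.16) or 3.05-fold in KO mice and 2.46 (0.16) or 5.52-fold in CTR mice. The genotypes differed by −1.28 after KA (adjusted p = 1.5e-05 in limma). After saline the difference was −0.42 (95% interval −0.74 to −0.10), with an adjusted p of 1 over all probes and 1.34-fold lower in KO mice. Arrays that did not overlap in this direction after saline were found for 0.1% of genes. The difference of the responses, −0.86, missed its threshold (adjusted p = 0.031), while a dimmer Pdyn probe (ILMN_2767871) passed it with −1.33 (adjusted p = 0.0074). That probe gave responses of 1.41 in KO mice and 2.74 in CTR mice, and after saline −0.40 between KO and CTR mice.

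Penk, the proenkephalin gene (ILMN_2719921), had log2 signals of 9.29, 9.47, 9.52, 9.76 and 9.76 in KO mice and 10.14, 10.30, 10.30, 10.56 and 10.56 in CTR mice after KA. Saline arrays lay between 8.90 and 9.44 (median 9.22) in KO mice and between 8.87 and 9.58 (median 9.30) in CTR mice. The CTR arrays after KA were the highest without overlap, and the KO arrays after KA overlapped those after saline. The response was 0.36 (95% interval 0.09 to 0.63, adjusted p = 0.073) in KO mice and 1.13 (0.86 to 1.40, adjusted p = 3.7e-07 in limma) in CTR mice, where Penk rose 2.19-fold. After KA it was 1.75-fold lower in KO than in CTR mice (log2 difference −0.81, adjusted p = 2.4e-04). The difference of the responses, −0.77, had an adjusted p of 0.015 and was not called.

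Vgf and Scg2, which encode granin-family cargo of dense-core vesicles, had the largest responses to KA of the 10 genes in CTR mice on the main probes, although a second Pdyn probe, at 2.74, exceeded Scg2, whose CTR arrays after KA lay near the top of the range. Vgf (ILMN_2925923) reached 13.29, 14.14, 14.16, 14.17 and 14.46 in KO mice and 14.80, 15.24, 15.26, 15.32 and 15.94 in CTR mice after KA. Saline arrays had log2 signals between 11.60 and 12.21 (median 11.88) in KO mice and between 11.47 and 12.31 (median 11.78) in CTR mice. All 5 KO arrays lay below the lowest CTR array after KA, and the saline arrays of the genotypes overlapped. Vgf rose by 2.14 on the log2 scale (standard error 0.20) or 4.42-fold in KO mice and by 3.46 (0.20) or 11-fold in CTR mice. After KA, Vgf was 2.41-fold lower in KO than in CTR mice (log2 difference −1.27, adjusted p = 1.5e-04 in limma). The responses differed by −1.32 (adjusted p = 0.0053), a call lost (adjusted p up to 0.012) without KO saline replicate 2, 5 or 6 or CTR saline replicate 1, 2, 3 or 4. A second Vgf probe (ILMN_1232310) rose by 1.17 in KO mice and by 2.6 in CTR mice, a difference of −1.43 (adjusted p = 0.0014).

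Scg2, the secretogranin II gene (ILMN_1237378), had log2 signals of 14.05, 14.49, 14.66, 14.95 and 15.09 in KO mice and 15.62, 15.68, 15.79, 15.87 and 15.90 in CTR mice after KA. In saline-injected animals the signal lay between 12.97 and 13.56 (median 13.25) in KO mice and between 12.87 and 13.38 (median 13.20) in CTR mice. The CTR arrays after KA lay within 0.28 of each other, near the top of the range, and above all KO arrays. KA raised Scg2 2.70-fold in KO mice (log2 difference 1.44, standard error 0.14) and 6.12-fold in CTR mice (2.61, 0.14), and the responses differed by −1.18 (adjusted p = 9.4e-04 in limma). After KA the genotypes differed by −1.12 (adjusted p = 1.7e-05), or 2.18-fold. A second probe (ILMN_2492442), between 7.0 and 8.27 and thus close to the low end, had responses of −0.02 in KO mice and 0.59 in CTR mice. Its difference between KO and CTR mice after KA, −0.48, was 1.40-fold and was not called.

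Tac1, the precursor gene of substance P and neurokinin A (ILMN_1251000), had log2 signals of 9.66, 9.72, 9.80, 9.90 and 10.13 in KO mice and 10.31, 10.38, 10.41, 10.70 and 11.16 in CTR mice after KA. After saline the range was 9.37 to 10.69 (median 9.46) in KO mice and 9.14 to 9.93 (median 9.37) in CTR mice. KO replicate 5 after saline, at 10.69, lay above every KO array after KA. The response was 0.16 (95% interval −0.25 to 0.57) in KO mice and 1.15 (0.74 to 1.56) in CTR mice, where Tac1 rose 2.21-fold (adjusted p = 8.2e-05 in limma). Without KO saline replicate 5 the KO response was 0.36 and was still not called (adjusted p = 0.14). After KA, Tac1 was 1.68-fold lower in KO than in CTR mice (log2 difference −0.75, adjusted p = 0.020), a call lost without KO KA replicate 1 (−0.70, adjusted p = 0.053) or CTR KA replicate 2 (−0.61, adjusted p = 0.065). A second Tac1 probe (ILMN_1219905) stayed between 7.25 and 7.68 on all arrays, near the low end, with differences between −0.07 and 0.03.

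Cck, the cholecystokinin gene (ILMN_1252990), had log2 signals of 13.58, 13.80, 13.86, 14.07 and 14.08 in KO mice and 14.36, 14.53, 14.66, 14.74 and 15.32 in CTR mice after KA. The range after saline was narrow, between 13.86 and 14.23 (median 14.02) in KO mice and between 13.71 and 14.14 (median 13.93) in CTR mice. The CTR arrays after KA stood above the other 3 groups, which overlapped one another. Cck had a response of −0.15 (95% interval −0.42 to 0.11, not called) in KO mice and rose by 0.79 (0.53 to 1.06) or 1.73-fold in CTR mice. After KA, Cck was lower in KO than in CTR mice (log2 difference −0.85, adjusted p = 1.3e-04 in limma), and the responses differed by −0.94 (adjusted p = 0.0026).

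Sst, the somatostatin gene (ILMN_2729826), also had its highest group mean in CTR mice after KA, with a smaller difference between the genotypes. Its log2 signals after KA were 14.17, 14.48, 14.57, 14.77 and 14.91 in KO mice and 14.56, 15.02, 15.24, 15.27 and 15.33 in CTR mice. After saline it lay between 14.20 and 14.73 (median 14.47) in KO mice and between 14.07 and 14.52 (median 14.32) in CTR mice. CTR KA replicate 1, at 14.56, was the only CTR array after KA that lay among the KO arrays. The response was 0.10 (95% interval −0.19 to 0.38) in KO mice and 0.80 (0.51 to 1.08, adjusted p = 8.2e-05 in limma) in CTR mice. After KA the genotypes differed by −0.50 (adjusted p = 0.024), which was 1.42-fold and under the fold threshold. Without CTR KA replicate 1 this difference was −0.63 (adjusted p = 0.0021) and passed the fold threshold.

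The summed linear signal of 9 GABAergic markers ran from 47445 to 64998 (median 57410) in KO mice after KA and from 46905 to 55743 (median 51820) in KO mice after saline. In CTR mice it ran from 58089 to 80837 (median 69521) after KA and from 44496 to 52725 (median 46242) after saline, without overlap. Over all genes, 4.2% were called as higher after KA in KO mice and 8.88% in CTR mice. Of the 9 GABAergic markers only Gad1, a glutamate decarboxylase, was called for KA, with a difference of 0.43 in KO mice (adjusted p = 0.017, under the fold threshold) and a rise of 0.86 in CTR mice. Its difference after KA was −0.44 between KO and CTR mice (adjusted p = 0.023, under the fold threshold). The vesicular GABA transporter gene Slc32a1 had responses of −0.12 in KO mice and 0.05 in CTR mice. Gad1, which averaged 14.56 in CTR mice after saline, weighs most in the linear sum. Gad2, Lhx6 and Erbb4 averaged 7.16, 7.86 and 7.42 in that group, near the low end. The part of these markers in the precursor differences was not tested.

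Adcyap1, the gene of the peptide PACAP (ILMN_1227605), moved in opposite directions in the genotypes. After KA it had log2 signals of 9.11, 9.42, 9.60, 9.65 and 9.65 in KO mice and 10.65, 10.73, 10.80, 11.11 and 11.25 in CTR mice. Its saline signals lay between 9.76 and 10.67 (median 10.04) in KO mice and between 9.0 and 9.94 (median 9.31) in CTR mice. The KO arrays after KA all lay below those after saline, whereas in CTR mice the KA arrays all lay above the saline arrays. Adcyap1 fell by 0.59 on the log2 scale (95% interval −0.92 to −0.26) or 1.51-fold in KO mice (adjusted p = 0.013 in limma) and rose by 1.54 (1.21 to 1.88) or 2.92-fold in CTR mice (adjusted p = 8.1e-08). The fall in KO mice lay just past the fold threshold and was no longer called without KO KA replicate 1 (−0.50, adjusted p = 0.057), KO KA replicate 4 (−0.57) or KO saline replicate 6 (−0.47), or with array weights (−0.55). The responses differed by −2.14 (standard error 0.23, adjusted p = 5.9e-06), and after KA the genotypes by −1.42 (adjusted p = 3.7e-06).

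After saline Adcyap1 averaged 10.08 ± 0.31 (SD, n = 6) in KO mice and 9.36 ± 0.32 (SD, n = 6) in CTR mice. The difference of 0.71 (95% interval 0.40 to 1.03) had an unadjusted p of 1.1e-04 and an adjusted p of 0.65 over all probes in limma. Only CTR replicate 6, at 9.94, lay above the lowest KO arrays. The call depended on the fit, since the difference was called with array weights (adjusted p = 0.036) and not in the other adjusted fits, and without CTR saline replicate 6 it was 0.83 (adjusted p = 0.11).

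Npy, the neuropeptide Y gene (ILMN_2946520), and Gal, the galanin gene (ILMN_2776034), were the precursors with higher signals in KO than in CTR mice after KA. Npy had log2 signals of 14.89, 15.41, 15.64, 15.64 and 15.72 in KO mice and 14.10, 14.50, 14.52, 14.61 and 15.03 in CTR mice after KA. After saline it lay between 12.69 and 13.15 (median 12.95) in KO mice and between 12.62 and 13.00 (median 12.91) in CTR mice. KO KA replicate 4, at 14.89, was the only KO array that fell below the highest CTR array. KA raised Npy 5.75-fold in KO mice (log2 difference 2.52, standard error 0.15) and 3.19-fold in CTR mice (1.67, 0.15). After KA it was 1.88-fold higher in KO mice (0.91, adjusted p = 2.4e-04 in limma). The responses differed by 0.85 (95% interval 0.43 to 1.28), with an adjusted p of 0.016 that missed the threshold for the interaction.

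Gal had log2 signals of 11.59, 11.66, 12.10, 12.43 and 12.62 in KO mice and 10.11, 10.29, 10.47, 11.26 and 12.44 in CTR mice after KA. The signals of saline-injected mice lay between 8.96 and 9.99 (median 9.50) in KO mice and between 9.32 and 9.69 (median 9.36) in CTR mice. The CTR arrays after KA were spread over 2.33 log2 units, and CTR KA replicate 2, at 12.44, lay among the KO arrays. The response was 2.58 (standard error 0.29) or 5.99-fold in KO mice and 1.47 (0.29) or 2.77-fold in CTR mice. After KA the genotypes differed by 1.17 (adjusted p = 0.014 in limma), and by 1.55 (adjusted p = 5.2e-05) without CTR KA replicate 2. The call was lost without KO KA replicate 2 (1.03, adjusted p = 0.051), with array weights (0.97, adjusted p = 0.053) and with only the KA groups in the fit (adjusted p = 0.15). The difference of the responses was 1.11 (adjusted p = 0.16), and 1.49 (adjusted p = 0.0032) without CTR KA replicate 2.

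**Figure D2:**
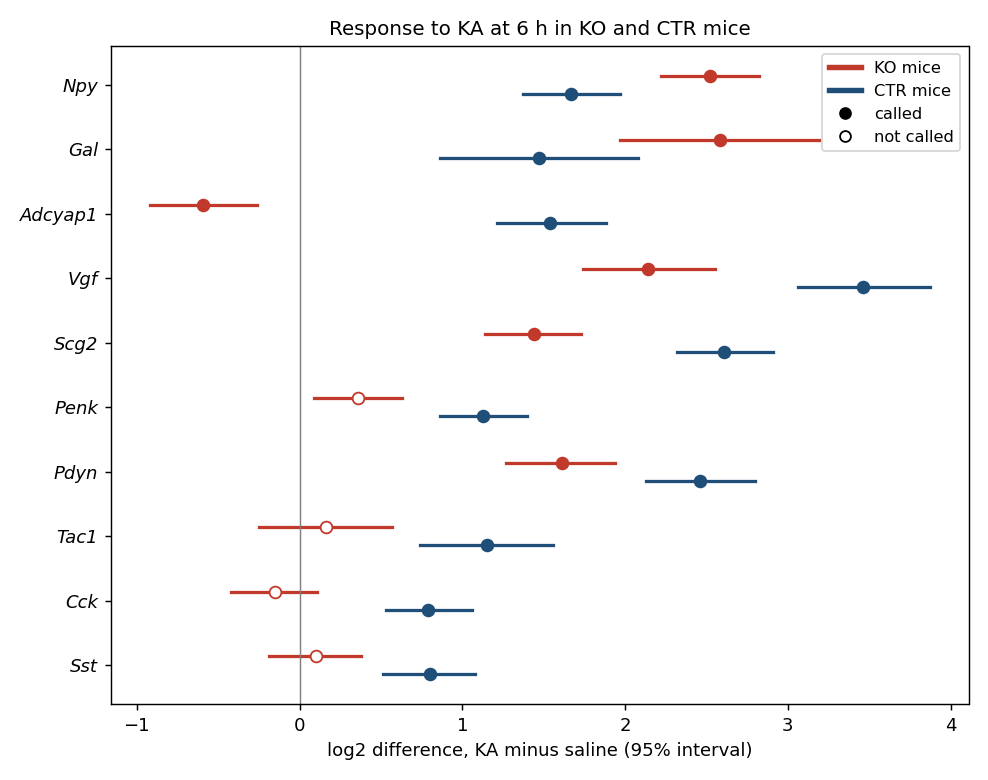
Response to KA of each precursor, as the log2 difference between KA and saline arrays with its 95% interval, in KO mice (red) and CTR mice (blue), with filled points for called responses. The KO response lies above the CTR response for Npy and Gal and below it for the other 8 genes.

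Over the 10 genes, the response to KA ran from −0.59 to 2.58 (median 0.90) in KO mice and from 0.79 to 3.46 (median 1.51) in CTR mice, against medians of 0.00 and −0.01 over all genes. In KO mice Npy, Gal, Vgf, Scg2 and Pdyn were called as higher and Adcyap1 as lower, and Penk, Tac1, Cck and Sst were not called. In CTR mice the 10 called as higher stand against 16.5% of the genes with a signal above the median, as theirs were. In KO mice 8.18% of such genes were called as higher and 8.35% as lower. The KA arrays lay above the saline arrays without overlap for 5 precursors in KO mice and for 10 in CTR mice, against 7.29% and 9.06% of genes, and below them for Adcyap1 in KO mice, against 7.18%. Among genes with a signal above the median these shares were 13.6%, 16% and 13%. Because the 10 genes were chosen with earlier results known, these shares do not test whether precursors respond more often than other genes.

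The 7 precursors that were lower in KO than in CTR mice after KA were those whose KO arrays all lay below the CTR arrays, a pattern found for 3.42% of genes. Of genes with a signal above the median, 5.67% had this pattern. Called as lower in KO mice after KA were 6.76% of those genes, and as higher 5.21%. The median difference was −0.83 over the 10 genes, against 0.00 over all genes. These comparisons share the KA arrays of both genotypes with the responses above and are not independent of them. Of the 1948 genes that rose in CTR mice, 732 (37.6%) were lower and 19 (0.975%) higher in KO mice after KA, and Npy and Gal were among the 19. Since the 1948 genes were picked by these same CTR arrays after KA, the choice in itself favours lower over higher in KO mice.

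**Figure D3:**
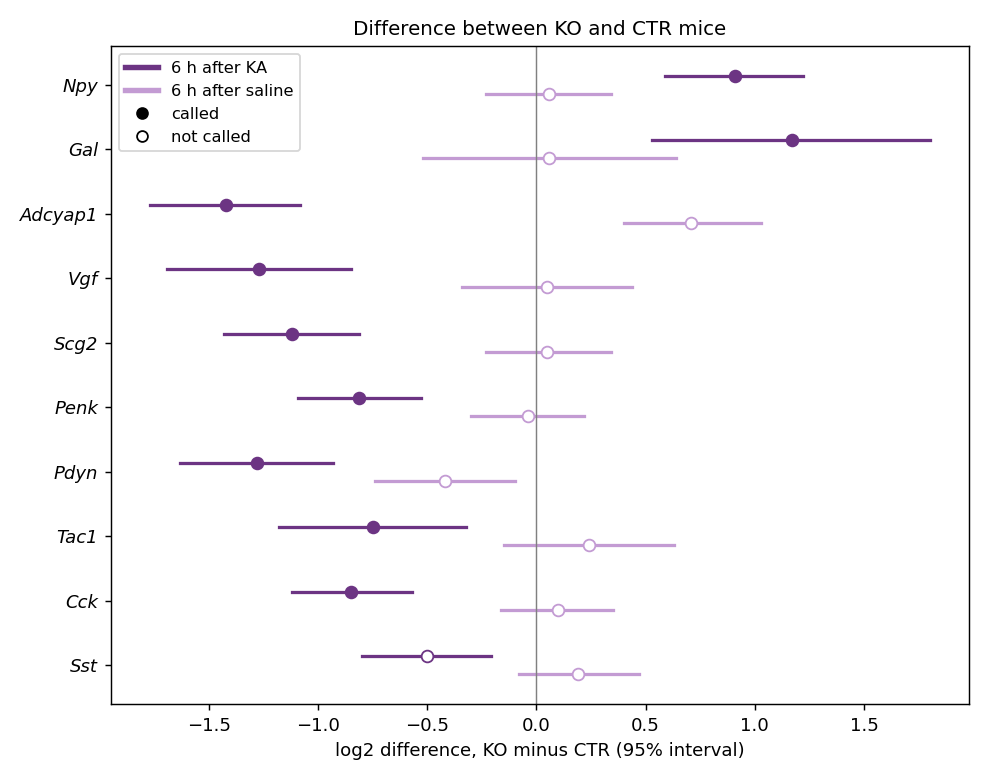
Difference between KO and CTR mice for each precursor, in log2 units with its 95% interval, 6 h after KA (dark) and 6 h after saline (light), with filled points for called differences. After KA the difference runs from −1.42 for Adcyap1 to 1.17 for Gal, and after saline from −0.42 for Pdyn to 0.71 for Adcyap1.

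After saline the differences of the 10 genes had a median of 0.06, and limma with array weights called 1, Adcyap1. The interaction was called for 4 of the 10 genes (Adcyap1, Vgf, Scg2 and Cck), each with the smaller or opposite response in KO mice, against 1.71% of genes called in that direction. Of genes with a signal above the median, 3.14% were called in that direction. At an unadjusted p under 0.05 all 10 had a difference between the responses, 8 toward a smaller response in KO mice (9.27% of all genes had such a p in that direction) and 2, Npy and Gal, toward a larger one (8.27%). Among genes with a signal above the median the shares at this unadjusted p were 14.2% and 13.9%.

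Over the 22 arrays, Vgf was most like Rgs4 (r = 0.987), Sap30 (0.986) and Fndc9 (0.986) among 10973 genes with a signal above the median. Scg2 was most like Fndc9 (r = 0.985), Srxn1 (0.985) and Rgs4 (0.984). The closest genes were less alike for Cck, with Sowahb (r = 0.899), Afdn (0.892) and Ercc5 (0.890), and for Adcyap1, with Popdc3 (0.877), Samsn1 (0.871) and Sap130 (0.862). These correlations include the differences between the 4 groups and are given as a description.

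Other genes of the same secretory pathway were mostly not called. Of 29 other measured neuropeptide precursors, 2 were higher after KA in KO mice (Trh and Rln3) and 5 in CTR mice (Trh, Cartpt, Adm, Nts and Crh), and none was lower in either, against 4.2% of all genes called as higher in KO mice and 8.88% in CTR mice. Many of the 29 lay near the low end, where folds are understated, whereas the 10 genes averaged at least 9.56. Pnoc, Pomc and Calcb, for example, averaged 7.59, 7.43 and 7.56 in CTR mice after saline. Trh, the precursor of thyrotropin-releasing hormone, averaged 11.78 in KO mice and 11.61 in CTR mice after KA, and 8.59 in KO mice and 7.99 in CTR mice after saline. It rose by 3.18 (standard error 0.50) in KO mice and by 3.62 (0.50) in CTR mice, and after KA the genotypes differed by 0.17 (standard error 0.52, adjusted p = 0.92 in limma). Cartpt, the precursor of CART peptides, had responses of 0.06 in KO mice and 1.39 in CTR mice, but the difference after KA, −0.83, was not called (adjusted p = 0.22). Nts, the neurotensin precursor, was lower in KO mice after KA (log2 difference −0.79, adjusted p = 0.017). Rln3, the relaxin-3 gene, had responses of 0.60 (adjusted p = 0.043) in KO mice and 0.20 in CTR mice. Adm, the adrenomedullin gene, had a response of 0.37 in KO mice, which was not called, and rose by 0.84 in CTR mice. Crh, the corticotropin-releasing hormone gene, had a response of 0.31 in KO mice, which was not called, and rose by 0.60 in CTR mice. No interaction was called among these 29 genes by limma, and 3 (Adm, Cartpt and Nts) had an unadjusted p under 0.05, as did 17.5% of all genes.

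Among 5 other granins and granin-like proteins only Chga, the chromogranin A gene, was called, and it rose in both genotypes, by 2.22 (standard error 0.19) in KO mice and by 1.91 (0.19) in CTR mice. Its difference between KO and CTR mice after KA was 0.50 (adjusted p = 0.13). Chgb, Scg3, Scg5 and Pcsk1n had responses between −0.42 and 0.45 in KO mice and between −0.17 and 0.01 in CTR mice, none of them called. Over all genes, 4.2% were called as higher in KO mice and 8.88% in CTR mice.

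Of 8 measured propeptide processing enzymes only Furin, a convertase of the secretory pathway, was called. As above, 4.2% of all genes were called as higher in KO mice and 8.88% in CTR mice. Furin averaged 13.79 in KO mice and 14.71 in CTR mice after KA, and 12.22 in KO mice and 12.26 in CTR mice after saline. Furin rose by 1.58 in KO mice and by 2.45 in CTR mice, a difference of −0.87 (adjusted p = 3.1e-04 in limma). The prohormone convertase genes Pcsk1 and Pcsk2 had responses of 0.11 and −0.42 in KO mice and of 0.21 and −0.47 in CTR mice and were not called. The group means of Pcsk1 lay between 7.39 and 7.62, near the low end, where folds are understated. The carboxypeptidase gene Cpe, with responses of 0.03 and 0.05 in KO and CTR mice, lay near 16, at the top of the range.

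Of 16 genes of dense-core vesicle biogenesis and release, 1 was higher and 1 lower after KA in KO mice, and 2 were higher and 3 lower in CTR mice. Of all genes, 4.2% were higher and 4.24% lower in KO mice, and 8.88% were higher and 8.48% lower in CTR mice. Several of the 16 lay near the low end, where folds are understated. Snap25 and Syt10, for example, averaged 7.42 and 7.49 in CTR mice after saline. Syt4, a synaptotagmin of dense-core vesicles, had a response of 0.33 (standard error 0.14, adjusted p = 0.13) in KO mice and rose by 2.13 (0.14) in CTR mice, and the responses differed by −1.80 (adjusted p = 6.7e-06 in limma). Ptprn, the vesicle membrane protein IA-2, rose by 0.98 in KO mice and by 1.28 in CTR mice. Cadps2, a priming factor of dense-core vesicles, fell by 0.82 in KO mice and by 0.67 in CTR mice. Its relative Cadps and the small GTPase gene Rab3a had responses of −0.23 and −0.43 in KO mice that were not called, and fell by 0.68 and 0.80 in CTR mice.

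**Figure D4:**
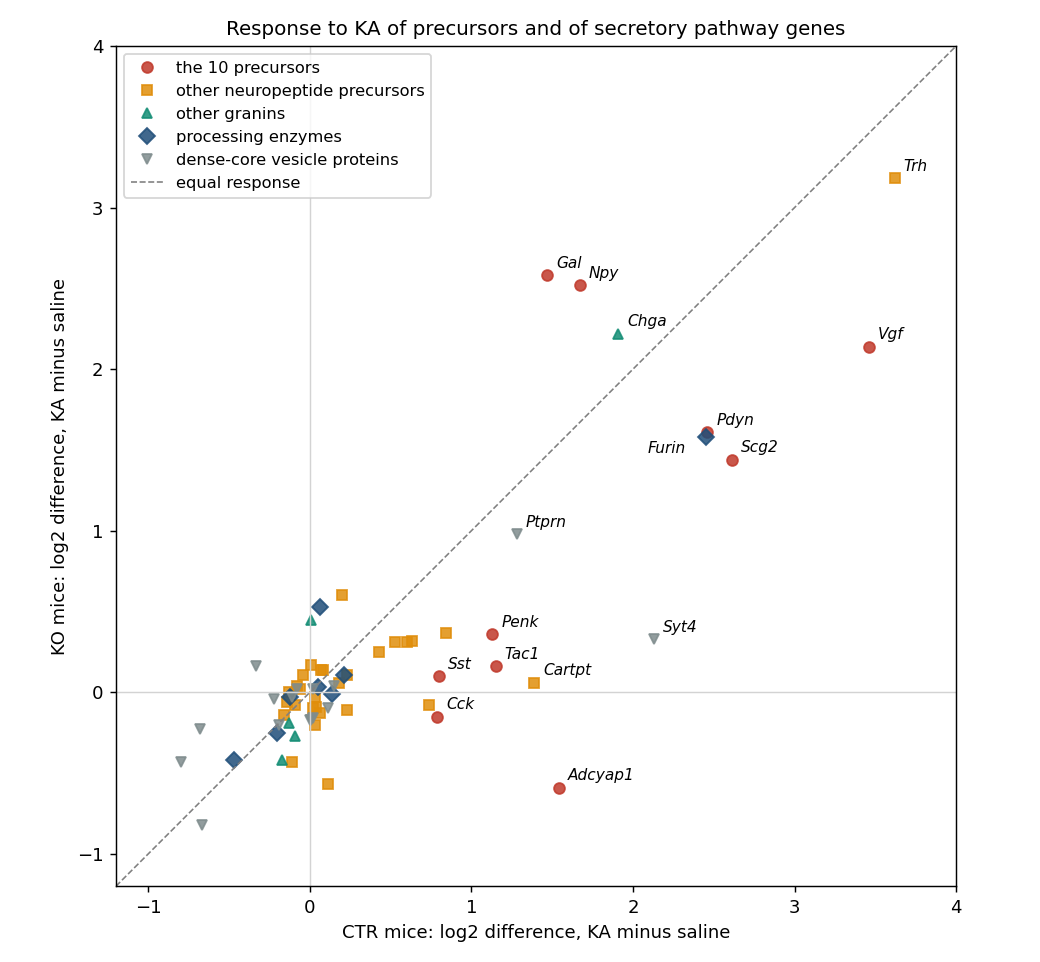
Response to KA in KO mice (vertical axis) against that in CTR mice (horizontal axis), both as log2 differences between KA and saline arrays, for the 10 precursors and 4 lists of related genes; the dashed line marks equal responses. Npy and Gal lie above the line, and Adcyap1 and Syt4 lie farthest below it; Chga (0.31 above) and Trh (0.44 below) had no called difference between the responses.

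Markers of other cells also differed between the groups. The summed signal of 9 granule cell markers ran from 43352 to 62573 (median 55406) in KO mice and from 19901 to 70069 (median 39520) in CTR mice after KA, and from 60520 to 78542 (median 69989) in KO mice and 66474 to 85778 (median 75935) in CTR mice after saline. This linear sum weighs bright markers such as C1ql2 most. By single markers, 3 of the 9 were called as higher and 3 as lower after KA in CTR mice, against 8.88% and 8.48% of all genes. In KO mice 1 was called as higher and 1 as lower, against 4.2% and 4.24% of all genes. Of the granule cell markers Tdo2 was lower and C1ql2 and Dsp were higher in KO than in CTR mice after KA. Of all genes, 3.74% were called as lower and 2.62% as higher in that comparison, the shares for every marker list here. The sum of 7 CA pyramidal neuron markers ran from 14083 to 26179 (median 18774) in KO mice and from 9149 to 17526 (median 9883) in CTR mice after KA, and from 8946 to 15361 (median 13377) in KO mice and from 8427 to 17087 (median 11442) in CTR mice after saline. Of these 7, 2 were called as higher and 1 as lower after KA in KO mice. In CTR mice only Iyd was called for KA, as lower. Fibcd1 (1.12, adjusted p = 0.02 in limma) and Grik4 (1.06, adjusted p = 5.7e-04) were higher in KO than in CTR mice after KA and none was called as lower. Wfs1 was lower in that comparison at an unadjusted p under 0.05 in limma. In the same comparison the endothelial markers Cdh5 (−0.97) and Pecam1 (−0.70), 2 of 5, and the mossy cell marker Csf2rb2 (−0.70), 1 of 6, were lower, and the microglial marker P2ry12 (0.67), 1 of 7, was higher. The sum of 7 astrocyte markers was 145841 to 167375 after KA and 154460 to 173683 after saline in KO mice, which overlap, and 175750 to 217343 after KA and 145261 to 162714 after saline in CTR mice, which do not. By single astrocyte markers, Gfap was called as higher after KA in both genotypes and Sox9 in CTR mice only. None of the 7 was called between KO and CTR mice after KA. The sum of 4 choroid plexus markers varied from 2837 to 78737 over all arrays, widely within each group. The part of these markers in the precursor differences was not tested.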

How the data were processed

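RNA from the dentate gyrus of 22 mice was amplified, biotin-labelled and hybridized to Illumina MouseWG-6 v2.0 bead arrays. The deposited log2 values were background-subtracted and quantile-normalized by the authors with BeadArray and used without further scaling. A second deposited table of signal intensity per probe, with column names that did not go with the samples, served only to check labels; it was already quantile-normalized. Probes were named by the platform annotation, and 937 symbols were updated. The 4 group means were fitted to all 46237 probes in limma 3.58.1 (R 4.3.3; 18 residual degrees of freedom), with Benjamini-Hochberg adjustment over all probes. No probe was filtered out. The fit was tested on simulated data. The 10 genes and the lists of related genes were chosen with earlier results of these data known. All 10 genes were named with every probe, related genes where called, at most 6 a list, and the 3 genes most alike where the interaction was called. The number of arrays limits the precision. One array came from each mouse.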

Additional observations from a re-analysis of the deposited data

Results flagged for a closer look

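In 3 of 40 combinations of gene and group, 1 array lay far from the others by Dixon's ratio, which chance alone gives for about 1 group in 20. KO saline replicate 6 had an Adcyap1 signal of 10.67, with the next array at 10.07. KO KA replicate 4 had a Vgf signal of 13.29, with the next at 14.14, and was also the lowest of its group for Npy, Gal, Scg2, Penk and Pdyn. Without it the responses of Vgf differed by −1.13 (adjusted p = 0.0084 in limma). KO saline replicate 5 had a Tac1 signal of 10.69, with the next at 9.74.

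The response to KA differed between KO and CTR mice, by the interaction in limma, for Adcyap1 (−2.14), Vgf (−1.32), Scg2 (−1.18) and Cck (−0.94). For Adcyap1 the responses had opposite signs, and for Vgf and Scg2 both genotypes rose.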

How the results depend on the processing

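No difference of the 10 genes changed its sign together with a call. The number of precursors called after KA was 5 to 6 in KO mice, 10 in CTR mice and 8 to 10 between the genotypes when each array was left out in turn, 3 to 6 for the interaction and 0 after saline. After saline 1 precursor, Adcyap1, was called with array weights (0.71, adjusted p = 0.036) and, without adjustment over probes, by a Tukey test run here. The paper's own Tukey test named Arsi and Sstr1, and not Adcyap1, as higher in KO mice after saline. The Vgf interaction was lost in 7 of 22 fits that left out 1 array (highest adjusted p = 0.012), without moderation (adjusted p = 0.019) and, with the Cck interaction (−0.81, adjusted p = 0.017) and the Cck rise in CTR mice (0.58), after normexp background correction. Array weights lost the difference of Gal after KA (0.97, adjusted p = 0.053) and the Adcyap1 fall in KO mice (−0.55, under the fold threshold). The Npy interaction was called with array weights (0.92, adjusted p = 0.0017), after normexp (1.01, adjusted p = 0.0048) and without KO KA replicate 4 (0.99) or CTR KA replicate 4 (0.97). Leaving out 1 array gained the Penk interaction in 3 fits (without KO saline replicate 2, CTR KA replicate 4 or CTR saline replicate 1), and those of Pdyn (without KO KA replicate 3, −1.04) and Sst (without CTR KA replicate 1, −0.83) in 1 each. Averaging the probes of a gene lost the Tac1 rise in CTR mice (0.56) and its difference after KA (−0.40) and gained the Pdyn interaction (−1.09). The cause of these shifts was not tested, except that the averages include probes near the low end. Normexp on the deposited signals and centring of the arrays on medians or 75th percentiles were added after seeing the data, and the centring changed no call. The sample labels name no pairing of arrays by replicate number. After subtraction of the group means, same-numbered arrays had r from −0.27 to 0.37 (median 0.11), and other pairs between groups a median of −0.01. Of the 22 arrays, 2 correlated best with an array of their own number. With the replicate block, the Adcyap1 fall in KO mice (−0.48) missed the fold threshold, the Penk interaction was called (adjusted p = 0.0023), and no other call of the 10 genes changed. Over all probes, leaving out the fold threshold called 6127 in place of 2811 for KA in KO mice, 11076 in place of 6008 for KA in CTR mice and 4612 in place of 2209 between the genotypes after KA. With the probes of each gene averaged, which leaves fewer tests, 1395, 2994 and 1041 genes were called. A fit of only the compared groups called 1463 probes between the genotypes after KA. After saline 1 probe was called, against 3 in that fit or after normexp, 4 with array weights and 5 by the Tukey test. The two-way fit without moderation called 613 in place of 966 for the interaction, against 1576 with array weights. Background correction and scaling of raw intensity and a slide block were not run, since the second table's names did not go with the samples and no slide was named. The low-signal floor and the bright end limit folds of dim and bright probes.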
